A study of Mus musculus with 3 samples.

Results

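The genes of the endothelin system were examined in mouse astrocytes made in culture from embryonic stem cells: the ligand genes Edn1, Edn2 and Edn3, the receptor genes Ednra and Ednrb, and the genes of the endothelin-converting enzymes, Ece1 and Ece2. They were chosen by name, and each probe set had to be annotated to 1 of these genes alone. Of the 7 genes, 6 had such probe sets (14 in all), out of 18194 genes measured in the series. Ednra had none and is not analysed here. The study holds 1 group of 3 samples, labelled wild type, with no treatment or genotype to compare. Stem cells were grown as embryoid bodies for 4 days, selected for neural precursors for 5 to 7 days and expanded in FGF2 and an EGF. At 18 passages from the embryoid bodies the growth factors were withdrawn and 5% fetal bovine serum was given for 5 days. No label names the stem cell line, says how many clones were used or says that the samples are separate cultures. The spread behind each p-value may therefore be technical.

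Endothelins are short secreted peptides that act on nearby cells. Each is made as a long precursor, which proprotein convertases such as furin cut to a big endothelin and a membrane-bound converting enzyme then cuts to the active peptide. The peptides bind G protein-coupled receptors: the A receptor prefers endothelin-1 and endothelin-2, and the B receptor binds all of the endothelins about equally. In the brain, the B receptor is known as a receptor of astrocytes, where its activation raises calcium and acts on growth and gap junction coupling, and it also clears endothelin from the tissue.

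Signal was read on 1-colour Affymetrix Mouse Genome 430 2.0 arrays, as 1 linear intensity per probe set. With no detection calls, a background limit was set on each array at the 95th percentile of 78 olfactory, vomeronasal, trace-amine and taste receptor genes. It lay at signals of 15.9, 17.1 and 16.8 on replicates 1, 2 and 3, or 4.05 on the log2 scale on average. A gene took the value of its brightest probe set, and one that did not pass the test against the limit is called not above background, which does not show that it is absent. Probe sets differ in brightness, so levels of different genes, and medians over genes, are not comparable as amounts of RNA. Replicate 3 stood somewhat apart: over probe sets above background, the log2 signals of replicates 1 and 2 correlated across probe sets at r = 0.987, against 0.952 for replicates 1 and 3 and 0.960 for replicates 2 and 3. Replicate 3 also differed on the array's own control probe sets. The 3' over 5' signal of beta-actin was 1.12, 1.17 and 1.97 on replicates 1, 2 and 3, and that of Gapdh 0.769, 0.770 and 1.24. That of pyruvate carboxylase was 5.13 and 5.23 on replicates 1 and 2 and at least 27.4 on replicate 3, where its 5' probe set read 13.6, below the limit, and the limit was taken in its place. A higher ratio means less signal from the 5' part of a transcript relative to its 3' part.

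Of all genes tested, 58.3% were above background, the share against which the marker counts are read. All 10 astrocyte markers were above background, among them Gfap at a log2 signal of 12.63 ± 0.12 and Aqp4 at 11.87 ± 0.10 (SD, n = 3). This count was 8 when genes took the median over their probe sets. In that setting 9158 genes passed in all, against 10570 with the brightest probe set. Counts in that setting, here and below, are therefore not to be read against 58.3%. Endothelial cells and neural crest cells also carry endothelin genes in the body, so their markers were read as well. Of 10 endothelial markers 1 was above background, Kdr, a growth factor receptor gene, at a log2 signal of 6.59 ± 0.46 and named after its value was seen. The junction genes Pecam1 and Cdh5 did not pass, at 1.56 ± 2.00 and 2.20 ± 1.16. The summed signal of the 10 endothelial markers was 129, 145 and 218 on replicates 1, 2 and 3. Of 8 measured neural crest and melanocyte markers 3 were above background, Sox10 at 4.64 ± 0.15, Mitf at 7.90 ± 0.31 and Pmel at 4.72 ± 0.28, while Dct was at 3.32 ± 0.33. This count was 1 without replicate 1 or without replicate 2. Of 10 smooth muscle and pericyte markers 4 were above background, of 8 neuronal markers 5, near the share of all genes, and of 8 microglia and blood markers 1, Csf1r. The smooth muscle genes Acta2 (on 1 of 3 probe sets) and Tagln passed, at 9.83 ± 0.21 and 7.71 ± 0.14, while Myh11 did not, at 2.58 ± 1.86. The neuronal gene Syt1 passed at 7.24 ± 0.12, on 1 of 4 probe sets, and Snap25 did not, at 2.02 ± 0.50. The part of such cells in the signals below was not tested. In bulk samples, fewer cells of a type and less RNA per cell cannot be told apart.

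Of the 6 endothelin genes 3 were above background: the B receptor gene Ednrb and both converting enzyme genes, Ece1 and Ece2. None of the 3 ligand genes was (limma, one-sided test of the mean against the limit, with p adjusted by Benjamini-Hochberg over 18116 genes and a threshold of 0.05), and 0 of them had an unadjusted p below 0.05. With 58.3% of all genes tested above background, 3 of 6 is near the share of the array as a whole. The median of the 6 genes was 1.02 log2 units over the limit, against 1.76 for all genes tested, both of them medians over probe sets of unequal brightness. By probe set, 6 of 14 were above background, against 52.2% of all probe sets tested. Without replicate 3 the counts were again 3 genes and 6 probe sets.

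**Figure D1:**
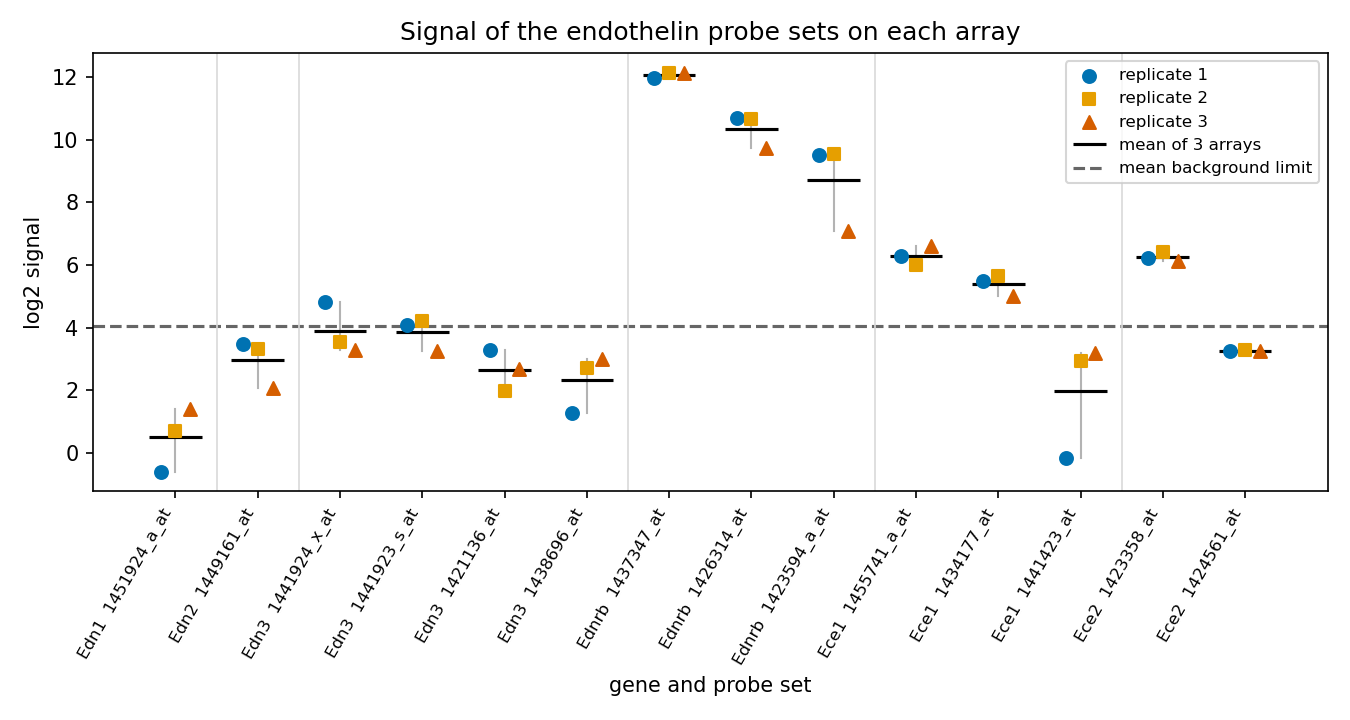
Log2 signal of each of the 14 endothelin probe sets (x axis) on the 3 arrays, with symbols for replicates, a bar for their mean, a thin line for their range and a dashed line at the mean background limit of 4.05. The 3 Ednrb probe sets, 2 of Ece1 and 1 of Ece2 lie above the line on every array, and those of the ligand genes lie at or below it apart from 3 points of Edn3.

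The promoters of Ednrb and Edn1 are shown as those of a receptor gene above background on every probe set and of a ligand gene below the limit on every array. Each runs from 250 bases before to 50 after the RefSeq transcript start on GRCm38.p6, Ednrb at chr14:103843652-103843951 on the minus strand and Edn1 at chr13:42301226-42301525 on the plus strand. Capitals mark matches to the motifs searched.
Ednrb: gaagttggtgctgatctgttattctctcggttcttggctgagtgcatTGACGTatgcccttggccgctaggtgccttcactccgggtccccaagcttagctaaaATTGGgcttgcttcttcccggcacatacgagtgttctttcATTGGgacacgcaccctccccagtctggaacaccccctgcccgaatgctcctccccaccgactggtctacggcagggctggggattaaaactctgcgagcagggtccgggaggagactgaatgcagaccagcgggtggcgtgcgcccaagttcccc
Edn1: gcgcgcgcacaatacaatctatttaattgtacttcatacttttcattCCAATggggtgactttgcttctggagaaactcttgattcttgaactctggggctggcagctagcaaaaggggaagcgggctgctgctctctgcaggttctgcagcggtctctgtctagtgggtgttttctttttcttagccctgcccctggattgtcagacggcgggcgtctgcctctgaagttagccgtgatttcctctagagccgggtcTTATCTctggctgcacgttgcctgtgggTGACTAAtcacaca
Both strands were searched for AGATAA (bound by GATA factors), TGACTAA and TGANTCA (AP-1), TGACGT (part of the cyclic AMP response element), AACAAT (SOX), TATAAA (a core promoter element), CCAAT and GGGCGG (bound by Sp1). The Edn1 window held AGATAA, read on the other strand as TTATCT, at base 9 after the start, TGACTAA at base 37 and CCAAT at base -203. Of 32851 mouse promoter windows of this length, 11.2% held AGATAA, 2.35% TGACTAA and 37.4% CCAAT. GATA and AP-1 elements are known from work on the human and rodent Edn1 promoter. Whether the matches in this window are those elements was not tested, and positions here count from the RefSeq start. The Ednrb window held TGACGT at base -203, which 7.51% of windows held, and CCAAT on the other strand at bases -146 and -106. Neither window held TATAAA or GGGCGG, and bases outside the windows were not searched. The Edn1 window had 11 CpG dinucleotides and the Ednrb window 15. These matches are letters in a window, and no binding was measured.

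Among the ligand genes, Edn1 encodes endothelin-1, the main form made by blood vessels and one that injured astrocytes can also make. Its single probe set read 0.660, 1.62 and 2.63 on replicates 1, 2 and 3. All 3 values lay below the limit of their array, by a mean of 3.55 log2 units (over the limit: -3.55, 95% interval -4.82 to -2.29), and Edn1 did not pass. Edn2, whose peptide is known from the gut and the ovary, read 11.2, 9.95 and 4.16. All 3 of these values also lay below the limit, at -1.10 log2 units from it (95% interval -2.17 to -0.03), and Edn2 did not pass. Without replicate 3 it was at -0.65.

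Edn3 encodes endothelin-3, the ligand that enteric neuron and pigment cell precursors need through the B receptor. Its brightest probe set, 1441924_x_at, read 28.1, 11.6 and 9.74 on replicates 1, 2 and 3. Replicate 1 was above its limit and the others below, and the mean was -0.18 log2 units from the limit (95% interval -1.33 to 0.98), which did not pass. The interval spans the limit, so a level slightly above it could not be seen here. The value was 0.13 without replicate 3 and 0.02 without replicate 2, and did not pass in either case (adjusted p = 0.644 and 0.766, limma). A second probe set, 1441923_s_at, read 16.8, 18.5 and 9.52, above the limit on replicates 1 and 2 and below it on replicate 3. Both of these probe sets are of the kinds that can bind transcripts of several genes. The other Edn3 probe sets, 1421136_at and 1438696_at, read 3.93 to 9.80 and 2.41 to 8.05, below the limit on every array.

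Ednrb, the gene of the B receptor, was far above background. Its brightest probe set, 1437347_at, read 4006, 4482 and 4509 on replicates 1, 2 and 3. The arrays lay close together, with a log2 signal of 12.08 ± 0.10 (SD, n = 3), 8.03 log2 units over the limit (95% interval 7.68 to 8.38; adjusted p = 3.85e-05, limma). Without replicate 3 it was 8.01 over the limit. The other 2 probe sets were also above background on every array, but they did not vary in the same way between arrays. Probe set 1426314_at read 1644, 1620 and 854, so that replicates 1 and 2 were 1.93 and 1.90 times as bright as replicate 3. Probe set 1423594_a_at read 726, 742 and 137, and there replicates 1 and 2 were 5.28 and 5.40 times as bright as replicate 3.

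The Ednrb probe sets differed in brightness on every array, and their disagreement in change between arrays lay mainly in replicate 3. Set against the mean of replicates 1 and 2, replicate 3 was at 0.09 log2 units on 1437347_at, -0.93 on 1426314_at and -2.42 on 1423594_a_at. Over all probe sets above background the median of this shift was 0.18. The widest difference in this shift between the Ednrb probe sets was 2.51 log2 units. It was matched or passed by 78 (1.65%, Ednrb included) of 4734 genes with 2 or more probe sets above background. The median difference of those genes was 0.60. Genes with more probe sets can differ more widely, which was not adjusted for. Among 18217 probe sets above background, 33 (0.181%) had a shift of replicate 3 at or below that of 1423594_a_at, and 853 (4.68%) at or below that of 1426314_at. Both counts include Ednrb probe sets. Ednrb was 1 of 64 genes of the 4734 whose brightest probe set was within 0.5 log2 units on replicate 3 while another was at least 2 log2 units lower. The reverse, another at least 2 log2 units higher, was seen for 0 genes. The pattern was drawn from the Ednrb readings, so the place of Ednrb among the 64 genes was given beforehand. The array with the low Ednrb readings is the one with the high 3' over 5' ratios given above, and the part of that difference in the Ednrb readings was not tested. RefSeq lists 4 transcripts of Ednrb, and no label says which of them each probe set reads. The call for Ednrb held on each probe set. Over the limit they were at 8.03, 6.31 and 4.66 log2 units with all arrays, and at 8.01, 6.63 and 5.48 without replicate 3 (largest adjusted p = 0.00298 over both, limma).

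**Figure D2:**
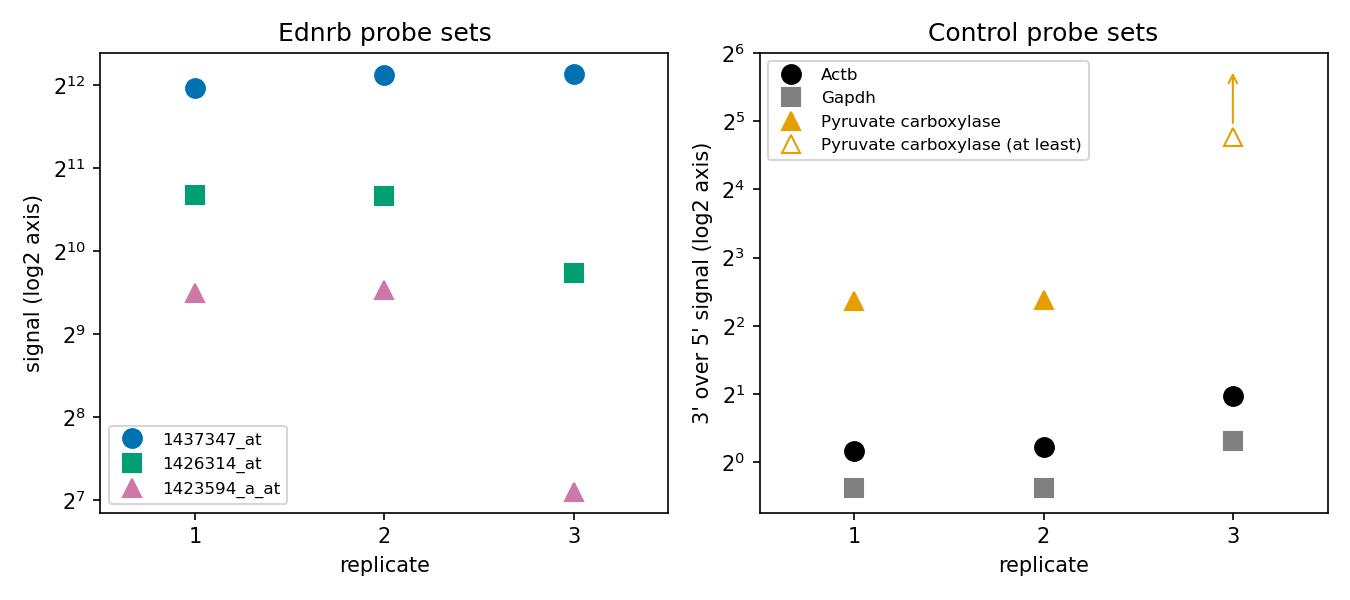
Left, linear signal of the 3 Ednrb probe sets on each replicate, on a log2 axis; right, 3' over 5' signal of the array's control probe sets for Actb, Gapdh and pyruvate carboxylase, on a log2 axis. On replicate 3 the probe set 1423594_a_at reads 137 against 726 and 742 on the others, 1437347_at stays between 4006 and 4509, and the 3 control ratios are at their highest, the open symbol with an arrow being a lower bound of 27.4.

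The converting enzyme genes were both above background at modest levels. Ece1 encodes the enzyme that makes most active endothelin-1 at the cell surface and inside vesicles. Its brightest probe set, 1455741_a_at, read 77.3, 64.4 and 96.9 on replicates 1, 2 and 3, all well over the limit, with a log2 signal of 6.29 ± 0.29. It was 2.24 log2 units over the limit (95% interval 1.72 to 2.76; adjusted p = 0.000482, limma), and 2.10 without replicate 3 (adjusted p = 0.00442). Probe set 1434177_at read 44.4, 50.04 and 32.3 and also passed, at 1.32 log2 units over the limit (adjusted p = 0.00446, limma), but it did not pass with the limit at the 99th percentile (adjusted p = 0.0544). On 1434177_at replicate 3 was the lowest array, and on 1455741_a_at the highest. The remaining probe set, 1441423_at, read 0.889, 7.56 and 9.09 and was below the limit on every array. RefSeq lists 4 transcripts and 4 promoter windows for Ece1, a gene known for protein forms that begin at different promoters. The probe sets are not assigned to those forms here.

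Ece2 encodes a related enzyme that works in acidic vesicles and is known mainly from neural tissue. Its brightest probe set, 1423358_at, read 75.4, 84.9 and 70.3, with a log2 signal of 6.26 ± 0.14. The 3 arrays lay close together, 2.21 log2 units over the limit (95% interval 1.82 to 2.59; adjusted p = 0.000204, limma), and 2.28 without replicate 3 (adjusted p = 0.00193). The other, 1424561_at, read 9.52, 9.84 and 9.44 and was below the limit on all 3 arrays, at a mean of -0.79 log2 units from it (95% interval -1.21 to -0.37). The 2 probe sets of Ece2 thus gave different calls, and each was steady across arrays. When a gene took the median over its probe sets, Ece2 was at 0.73 log2 units over the limit and passed (adjusted p = 0.00986, limma). With 2 probe sets that median is their mean, so it includes 1423358_at and cannot decide between the calls. In the RefSeq gene table the Ece2 locus is overlapped by a readthrough locus, Eef1akmt4-ece2, and Ece2 carries that locus's name among its synonyms. Whether 1423358_at reads Ece2 alone is therefore uncertain.

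Receptors and enzymes next to the family were read from lists. Gpr37l1 and Gpr37 encode receptors that resemble the endothelin B receptor in sequence and do not bind endothelins. Gpr37l1, known from astrocytes, was above background at a log2 signal of 10.35 ± 0.24, with 10.27, 10.15 and 10.62 on replicates 1, 2 and 3. Gpr37, known from oligodendrocytes, was at 3.35 ± 0.33 and did not pass. All 4 proprotein convertase genes were above background, against 58.3% of all genes tested, and 3 were when genes took the median over their probe sets. Furin, which cuts the endothelin-1 precursor, was at 7.29 ± 0.17 and Pcsk7 at 7.33 ± 0.38. Of 8 other peptidase genes that cut endothelins or belong to the neprilysin family 3 were above background (37.5%, against 58.3% of all genes tested), with a list median of -0.53 log2 units from the limit. Mme, the gene of neprilysin, which breaks endothelins down, was at 7.57 ± 0.32 and passed, on 1 of 2 probe sets. Ecel1, Kel and Phex, of the same family as Ece1, did not pass, with log2 signals of 3.87 ± 0.15, 2.76 ± 0.90 and 1.32 ± 1.36. Without replicate 3 the count of this list was 2, and those of the other pathway lists named here and of the marker lists were the same as with it.

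Genes that act after the receptor were read from 2 further lists. Of 9 G protein alpha subunit genes 9 were above background, against 58.3% of all genes tested, with a list median of 5.42 log2 units over the limit, and 8 were when genes took the median over their probe sets. Gnaq and Gna11, of the class that couples endothelin receptors to calcium release, were at log2 signals of 9.47 ± 0.32 and 9.47 ± 0.23. Gna12 and Gna13, of another class of alpha subunit, were at 8.90 ± 0.24 and 10.57 ± 0.27. Of 12 measured effector genes 9 were above background (75%, against 58.3% of all genes tested), with a median of 2.61 over the limit. The count was 6 when genes took the median over their probe sets, where fewer genes passed in all (9158 against 10570). The phospholipase C genes Plcb1 and Plcb3 were at 6.45 ± 0.31 and 6.94 ± 0.58, the calcium store channel gene Itpr2 at 5.67 ± 0.17 and the kinase gene Prkca at 8.49 ± 0.29, and all 4 passed. By probe set, 1 of 5 passed for Plcb1, 1 of 1 for Plcb3, 3 of 6 for Itpr2 and 3 of 3 for Prkca. A further 4 effector genes of the list, among them Itpr1, had no probe set of their own and are not analysed here.

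Genes that switch receptor signalling off were above background in 8 of 9 measured cases (88.9%, against 58.3% of all genes tested), with a median of 2.56 log2 units over the limit. The arrestin genes Arrb1 and Arrb2 were at log2 signals of 6.62 ± 0.40 and 7.09 ± 0.16, and Rgs4, whose protein shortens the signal of Gq, was at 5.13 ± 0.36. When genes took the median over their probe sets, this count was 5 of 9, and fewer genes passed in all (9158 against 10570). Rgs4 was above background on 1 of 3 probe sets. Of 9 measured genes that published work on rodent astrocytes describes as responsive to endothelin-1, 6 were above background, with a median of 2.59 over the limit. This is 66.7%, near the 58.3% of all genes tested. Gja1, which encodes the main gap junction protein of astrocytes, was at 11.53 ± 0.15, the immediate early gene Fos at 10.43 ± 0.35 and the neurotrophin gene Bdnf at 6.99 ± 0.35, and these passed. Ptgs2, which encodes a prostaglandin synthase, was at 2.74 ± 1.43 and did not pass. The culture held serum and no sample was given or denied endothelin, so the levels of these genes say nothing about a response to it.

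**Figure D3:**
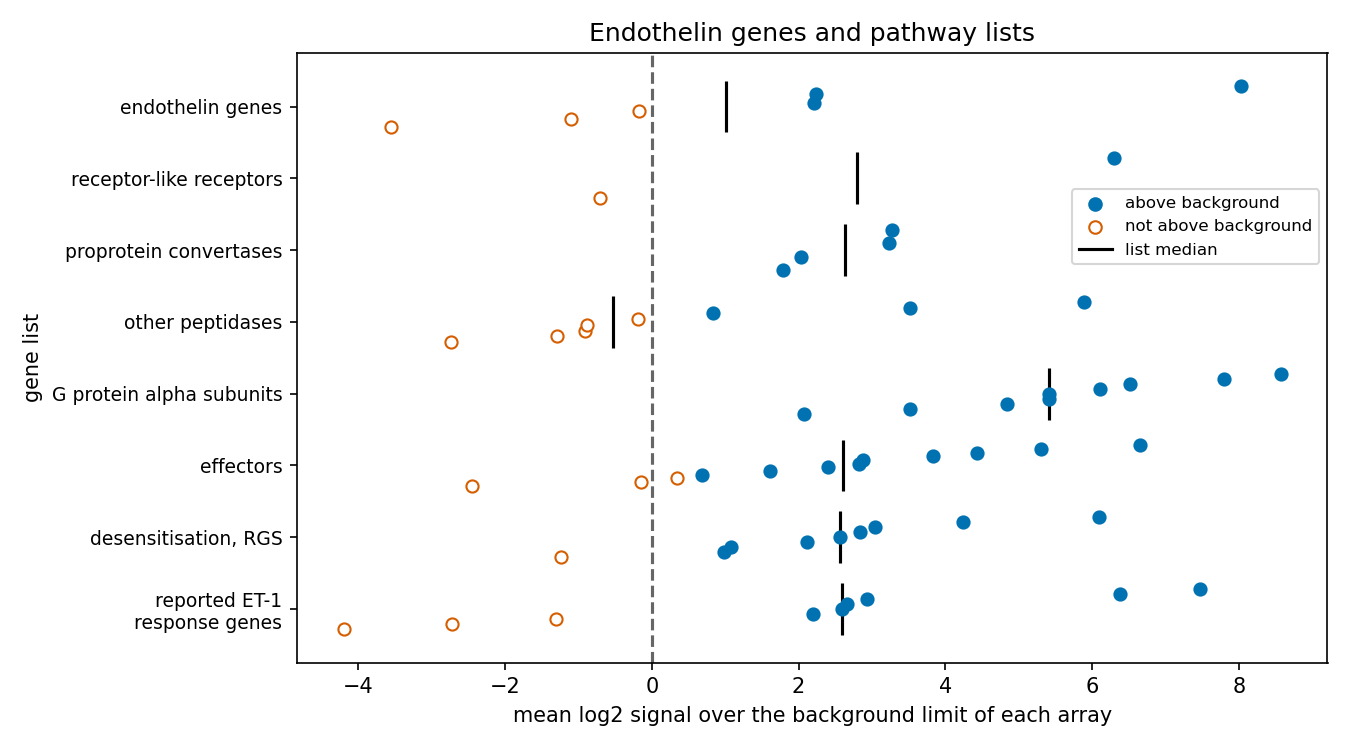
Mean log2 signal over the background limit (x axis) of each measured gene, by list (rows), with filled points for genes above background, open points for the others, a bar for the list's median and a dashed line at the limit. The 3 ligand genes are the open points of the top row, Ednrb stands at 8.03, and all 9 G protein genes are filled; points of different genes are not comparable in level, since probe sets differ in brightness.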

How the data were processed

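Total RNA of 3 samples was labelled with biotin and hybridised to 1-colour arrays, per the labels' protocols. The values the authors deposited are linear intensities, 1 per probe set and array (45101 rows, all above 0), made with GCOS 1.4, per the submitters' processing notes; no label gives its algorithm or scaling target. The 3 arrays limit the precision. Platform annotation gave the genes: 34958 probe sets had 1 gene, 932 several and 9211 none listed. Log2 was taken with no pseudocount. Each gene's brightest probe set, less the limit of its array, was set against 0 by limma 3.58.1, R 4.3.3, (one-sample, one-sided, eBayes, Benjamini-Hochberg over all genes); probe sets were tested likewise over all 34871. At an unadjusted p below 0.05, 10713 genes passed. The procedure was tested on simulated data, with 200 genes per level. It called 25.5% of genes set 1 log2 unit above the limit and 100% of those set 2 above. Of genes set at the level of the receptor genes it called 0.5%. Each simulated gene had the root mean square SD of the genes nearest in level, not an SD of its own. The shares hold for that SD and are not those of the real genes at these levels. The members and lists were chosen with earlier results of these data known. All members were described, and from each list the first 4 measured genes in its order could be named. Pathway lists held 60 genes (53 measured) and marker lists 55 (54 measured). Promoter sequences are RefSeq's, on GRCm38.p6, and the motifs were chosen after the levels were seen. Alternatives were the limit's percentile, a median over each gene's probe sets, leaving out probe sets ending in _s_at or _x_at, pseudocounts of 1 and 16, 2 normalizations, a filter on low values, an intensity trend and leaving out each replicate.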

Additional observations from a re-analysis of the deposited data

How the results depend on the processing

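The counts of 3 endothelin genes above background and the calls of Ednrb, Ece1 and Ece2 held under all 13 alternatives. Of these, the shift of arrays to a common median could change nothing, since each array's own limit is subtracted. Leaving out probe sets ending in _s_at or _x_at, the filter on low values and the intensity trend left the levels of Ednrb, Ece1 and Ece2 unchanged. Only their p-values differed there. The ligand genes Edn1, Edn2 and Edn3 did not pass under any alternative that gave them a value, although the filter on low values left Edn1 untested. Ednrb ranged from 6.33 to 8.28 log2 units over the limit, Ece1 from 1.35 to 2.50, Ece2 from 0.73 to 2.46, Edn1 from -3.99 to -0.89 and Edn2 from -1.48 to -0.43 (without replicate 3, -0.65). Edn3 was at 0.0801 with the limit at the 90th percentile, as was its probe set 1441924_x_at, and 1441923_s_at was at 0.0475 there. Edn3 was at -1.40 without probe sets ending in _s_at or _x_at and at -0.71 with a median over its probe sets. Leaving out each replicate in turn gave -0.35 to 0.13 for Edn3, -0.68 to 0.13 for 1441924_x_at and -0.37 to 0.10 for 1441923_s_at. Without replicate 1 the brightest Edn3 probe set was 1441923_s_at, and the -0.35 is its value. Likewise, the -1.40 is the value of 1421136_at, the brightest one left in that setting. Why the readings of 1441924_x_at differed between replicates was not tested. With the limit at the 99th percentile, 1434177_at of Ece1 was at 0.95 and did not pass, and the neural crest count was 1. Leaving out each replicate gave 1 to 3 for that count, 1 without replicate 1 or without replicate 2. When genes took the median over their probe sets, the counts were 5 for desensitisation genes, 6 for effectors, 2 for smooth muscle and pericyte, 3 for neuron and 0 for microglia and blood markers, against 8, 9, 4, 5 and 1. In that setting the counts were 8 for astrocyte and 2 for neural crest and melanocyte markers, against 10 and 3. The count over all genes fell there as well, to 9158 against 10570. No paired analysis was possible because the samples form 1 group. Signal over background limits what can be seen: 861 genes with a mean over the limit did not pass.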

Other observations

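Other genes of these astrocytes showed the replicate 3 pattern seen for Ednrb. The probe set above background with the lowest replicate 3, relative to the mean of replicates 1 and 2, was 1415801_at of Gja1. Named after its value was seen, it was at log2 signals of 9.43, 8.88 and 5.77 on replicates 1, 2 and 3. The brightest probe set of the same gene, 1437992_x_at, was at 11.40, 11.49 and 11.70, and is of a kind that can bind transcripts of several genes. Another, 1415800_at, was at 10.96, 11.39 and 11.33. Replicate 3 was thus 3.39 log2 units below the mean of the others on 1 probe set of Gja1 (replicate 3 minus that mean: -3.39) and 0.26 above it on the brightest.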
